A study of Mus musculus with 33 samples.

Results

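A group of 10 genes of cell adhesion and cell state were followed through mouse embryonic stem cells (ESCs) that lacked members of the heterochromatin protein 1 (HP1) family or the histone methyltransferase SETDB1. They were chosen by gene name, and all were found among the 55487 genes of the deposited tables. Of these, 5 are commonly used as epithelial markers (Cdh1, Epcam, Dsp, Cldn6 and Cldn7) and 5 as mesenchymal markers (Cdh2, Vim, Fn1, Snai1 and Zeb2). All 10 passed the filter on low counts in each comparison given here. By GENCODE M21 on GRCm38, Cdh1 lies at chr8:106603351-106670246, Epcam at chr17:87635979-87651129, Dsp at chr13:38151294-38198577, Cldn6 at chr17:23679249-23682446, Cldn7 at chr11:69964779-69967885, Vim at chr2:13573927-13582826, Snai1 at chr2:167538195-167542814, Zeb2 at chr2:44983632-45117395 and Fn1 at chr1:71585520-71653200, and Cdh2 is on chromosome 18. Values are of whole genes. Genes that overlap Dsp, Cdh2, Zeb2 or Fn1 reached at most 0.715 CPM in any library. CPM is a gene's count scaled to the library's total after adjustment by a factor that aligns the libraries (TMM). It has no correction for gene length.

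Epithelial cells hold their neighbours through E-cadherin (Cdh1) at adherens junctions, claudins at tight junctions and desmoplakin (Dsp), which ties desmosomes to keratin filaments. Mesenchymal cells instead carry N-cadherin (Cdh2), the intermediate filament vimentin (Vim) and a matrix of fibronectin (Fn1), and the zinc finger repressors SNAI1 and ZEB2 are known to bind E-box sequences and to repress epithelial genes during an epithelial to mesenchymal transition. ESCs are themselves epithelial in character: they grow as compact colonies rich in E-cadherin and EpCAM.

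RNA-seq was performed on 33 libraries, 3 for each of 11 conditions, all of C57BL/6 ESCs. HP1α (Cbx5), HP1β (Cbx1) and HP1γ (Cbx3) were absent singly (Hp1αΔ/Δ, Hp1βΔ/Δ, Hp1γΔ/Δ), in pairs (Hp1α/βΔ/Δ, Hp1α/γΔ/Δ, Hp1β/γΔ/Δ) or all together (Hp1α/β/γΔ/Δ, which the labels call a TKO), and Setdb1 knockout cells (here Setdb1Δ/Δ) were set against cells with floxed, undeleted alleles (Setdb1F/F). Wild-type libraries form 2 sets of 3 with the same genotype label. Set A was the control deposited with the single mutants, the Hp1α/βΔ/Δ cells and the triple mutant, and set B the control of the Hp1α/γΔ/Δ and Hp1β/γΔ/Δ cells. Per the study's methods, mutant lines were CRISPR-Cas9 clones, the triple mutant was made from Hp1α/βΔ/Δ cells with floxed Hp1γ by Cre and collected within days, and ESCs were grown with LIF on fibroblast feeders that were removed by plating on gelatin. They also say that single and double mutants were constitutive knockouts, and that the RNA of the triple mutant came from independent Cre transfections beside floxed cells given a control vector, whereas the libraries of set A are labelled wild-type. Replicates are called biological there. Neither source says that they were separate clones, so p-values measure the spread between these libraries. In bulk RNA, fewer cells of a type and less RNA per cell cannot be told apart.

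Library totals ran from 17330936 to 25743149 estimated counts. The targeted genes were lower where the labels say: mean Cbx5 went from 484 to 177 CPM in Hp1αΔ/Δ cells, Cbx1 from 439 to 104 CPM in Hp1βΔ/Δ cells, Cbx3 from 177 to 75.3 CPM in Hp1γΔ/Δ cells, and Setdb1 from 132 CPM in Setdb1F/F to 69.8 CPM in Setdb1Δ/Δ cells. In Hp1α/β/γΔ/Δ cells, Cbx5 stood at 282 CPM, Cbx1 at 46.2 CPM and Cbx3 at 64.6 CPM. Replicate 2 of the Hp1α/γΔ/Δ cells stood apart from the other two of its group (mean correlation of log2 CPM 0.958, against 0.976 and 0.977). The log2 fold changes of members described for these cells are therefore also given without it. Counts over gene lists and the fold of Zeb2 from summed counts include it. All 8 ESC markers checked, Pou5f1 and Nanog among them, were detected in every condition, with summed levels between 1496 and 8540 CPM.

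Since SNAI1 and ZEB2 recognise the E-box, which reads CACCTG on a strand and therefore CAGGTG on its complement, promoters in the RefSeq table for GRCm38.p6, 250 bases before to 50 after each start, were searched for these letters. The table held 11 windows for 7 members (Cdh1, Cdh2 and Fn1 had no entry). The motif lay in 5 of the 11 windows, 1 each of Epcam, Dsp, Cldn6, Cldn7 and Snai1, and in none of Vim and Zeb2, and 20.2% of all 32851 windows held it. The matches upstream of a RefSeq start are shown because they are the letters that these repressors are known to read. They lie in members with a change described below, though that of Cldn6 passed both thresholds in no mutant against its own control. Each line gives 30 bases of the plus strand, with the E-box in capitals:
Epcam, chr17:87635780-87635809: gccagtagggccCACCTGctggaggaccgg
Epcam, chr17:87635948-87635977: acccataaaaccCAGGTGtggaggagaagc
Cldn6, chr17:23679260-23679289: gggaaacgcacgCAGGTGgctatcgccgca
Cldn7, chr11:69965312-69965341: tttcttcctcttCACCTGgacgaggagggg
Cldn7, chr11:69965352-69965381: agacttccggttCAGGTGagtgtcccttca
Snai1, chr2:167538057-167538086: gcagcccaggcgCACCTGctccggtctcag
The motif began 187 and 19 bases before the start of Epcam, 93 before that of Cldn6, 97 and 57 before a start of Cldn7 and 126 before that of Snai1. These starts are those of RefSeq. By GENCODE, Cldn6 begins at 23679249 and Cldn7 at 69964779, so the matches of both lie inside the genes. The window at that earlier start of Cldn7 held no match. A match describes the letters of the window and is not a binding site.

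In wild-type cells of set A, Fn1 and the epithelial genes Epcam and Cdh1 were the most abundant members per length. On the length-normalised TPM scale that the authors deposited, Fn1 had 344 TPM, Epcam 324 TPM and Cdh1 152 TPM. Cldn6 (75.3 TPM), Vim (61.4 TPM) and Cldn7 (56.4 TPM) followed, and Cdh2 (3.88 TPM), Snai1 (3.13 TPM), Dsp (2.45 TPM) and Zeb2 (0.873 TPM) were low. In Hp1α/β/γΔ/Δ cells Cdh1 stood first, at 202 TPM, and Fn1 stood behind Epcam, at 101 TPM.

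**Figure D1:**
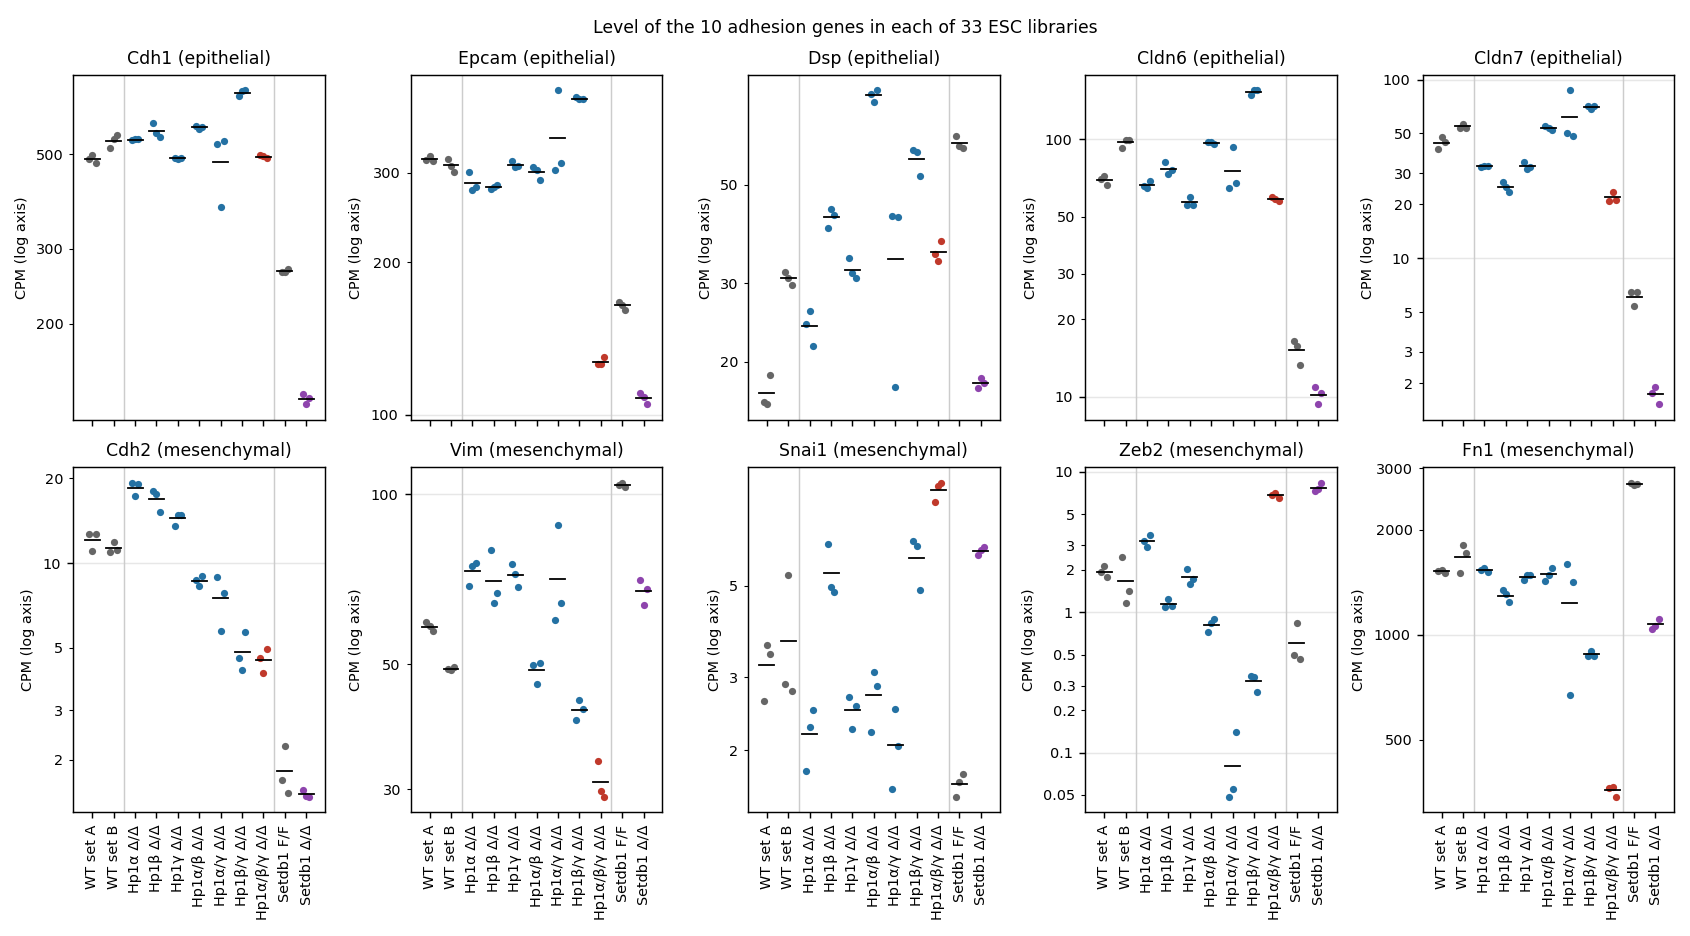
Level of each member in every library, in CPM on a log axis, by condition (points, libraries; bars, mean of 3). Fn1 spans 2706 CPM in Setdb1F/F to 358 CPM in Hp1α/β/γΔ/Δ cells, and Zeb2 spans 7.72 CPM in Setdb1Δ/Δ to 0.0809 CPM in Hp1α/γΔ/Δ cells.

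Loss of all 3 HP1 proteins changed adhesion genes in both groups without a uniform direction. A gene was called changed at an adjusted p under 0.05 with an absolute log2 fold change over 1. By this rule 7 of the 10 members changed in Hp1α/β/γΔ/Δ cells against wild-type set A, beside 42.3% of all 17501 genes tested. Of these, 3 rose (Dsp, Snai1 and Zeb2), beside 25.1% of all genes, and 4 fell (Epcam, Cldn7, Cdh2 and Fn1), beside 17.1%. Without the fold threshold 9 members passed, beside 81.6%. The median log2 fold change was -0.27 over the epithelial members and -0.94 over the mesenchymal members, beside 0.04 over all genes tested.

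Among the epithelial members, Epcam, a surface glycoprotein that mediates contact between epithelial cells and marks ESCs, fell furthest. It had 317, 323 and 316 CPM in wild-type cells and 126, 126 and 130 CPM in Hp1α/β/γΔ/Δ cells. The groups were far apart (log2 fold change -1.35 ± 0.028, SE, n = 3 per group, adjusted p = 7.77e-19). Here and below p is that of edgeR's quasi-likelihood test, adjusted over all genes tested by the method of Benjamini and Hochberg. Cldn7, a tight junction claudin, had 41.0, 47.6 and 44.6 CPM in wild-type cells and 21.0, 23.6 and 21.3 CPM without HP1 (log2 fold change -1.05 ± 0.070, edgeR adjusted p = 5.22e-11). All mutant libraries lay below all controls, though with genes of at least 10 counts in every library the value was -0.95, and as a ratio of deposited TPM -0.62, both short of the fold threshold. Cldn6, the claudin of early embryonic epithelium, had 70.3, 71.7 and 66.5 CPM against 59.8, 58.7 and 57.3 CPM, a log2 difference of -0.27 ± 0.048 that was under the fold threshold (edgeR adjusted p = 3.43e-05).

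Cdh1 differed by less than its spread. It had 488, 498 and 476 CPM in wild-type cells and 496, 494 and 489.5 CPM in Hp1α/β/γΔ/Δ cells, with overlapping ranges (log2 fold change -0.01 ± 0.023, edgeR adjusted p = 0.717). The sign depended on the scale: it was 0.02 with DESeq2's size factors and 0.41 as a ratio of deposited TPM. The median of all 15125 genes compared on the TPM scale was itself shifted by 0.34, and Cdh1 lay 0.07 above that median. Cdh1 is on chromosome 8, where the median log2 fold change of the other 925 genes tested was 0.52. The part of this shift in the value of Cdh1 was not tested.

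Dsp went the other way. Its levels were 16.3, 16.1 and 18.7 CPM in wild-type set A and 34.9, 33.6 and 37.5 CPM in Hp1α/β/γΔ/Δ cells, so that all mutant libraries were higher (log2 fold change 1.03 ± 0.076, edgeR adjusted p = 2.34e-10). The size rests on the control: wild-type set B had 31.9, 30.8 and 29.8 CPM, and against set B the log2 fold change was 0.18. It also fell just under the threshold without any filter (0.99) and without replicate 3 of the mutant (0.98), replicate 1 of set A (0.98) or replicate 2 of set A (0.97).

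Of the mesenchymal members, the 2 transcription factors rose while the structural genes fell or were lower. Snai1 had 2.63, 3.60 and 3.41 CPM in wild-type cells and 8.0, 8.73 and 8.90 CPM in Hp1α/β/γΔ/Δ cells (log2 fold change 1.38 ± 0.16, edgeR adjusted p = 1.97e-07). Zeb2 had 1.94, 2.12 and 1.78 CPM and then 6.84, 7.05 and 6.53 CPM (log2 fold change 1.77 ± 0.18, edgeR adjusted p = 3.23e-08). Neither gene's groups overlapped, and both stayed below 10 CPM in all 33 libraries.

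Fn1, which encodes the main adhesive glycoprotein of the matrix, fell most of all members. It had 1523, 1537 and 1502 CPM in wild-type cells and 364, 366 and 344 CPM in Hp1α/β/γΔ/Δ cells, a 4.33-fold lower level (log2 fold change -2.11 ± 0.024, edgeR adjusted p = 1.36e-22). N-cadherin followed: Cdh2 had 12.7, 11 and 12.6 CPM against 4.6, 4.07 and 4.93 CPM (log2 fold change -1.44 ± 0.13, edgeR adjusted p = 6.70e-09). Vim had 59.3, 58.3 and 57.2 CPM against 33.7, 29.8 and 29.1 CPM, which was lower in every mutant library yet under the fold threshold (log2 fold change -0.94 ± 0.060, edgeR adjusted p = 2.23e-11). Without replicate 1 of the mutant its value was -1.01, past the threshold.

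Fibroblast feeders express Fn1, Vim and Cdh2, so feeder markers were summed beside them. The 15 markers summed to 52.9 to 55.1 CPM in the libraries of set A and to 25.3 to 25.6 CPM in those of Hp1α/β/γΔ/Δ cells, so they moved in the same direction as the 3 structural genes. Fap was at 0 in every library, Lum averaged 0 CPM in set A and 0.164 CPM in the triple mutant, and Postn 0.0154 and 0.0331 CPM. Of the 15 markers, 4 were at 0 in all libraries of set A and 1 in all of the triple mutant. Against set A, 5 of the 10 feeder markers tested fell and 1 rose. Thy1 (14.0 to 1.33 CPM, -3.42), Col6a2 (-1.76) and Col1a1 (6.11 to 2.03 CPM, -1.62) were among those that fell. The summed ESC markers moved too, from 3609 to 3659 CPM in set A to 1496 to 1543 CPM in the triple mutant. The part of these shifts in the values of the members was not tested.

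**Figure D2:**
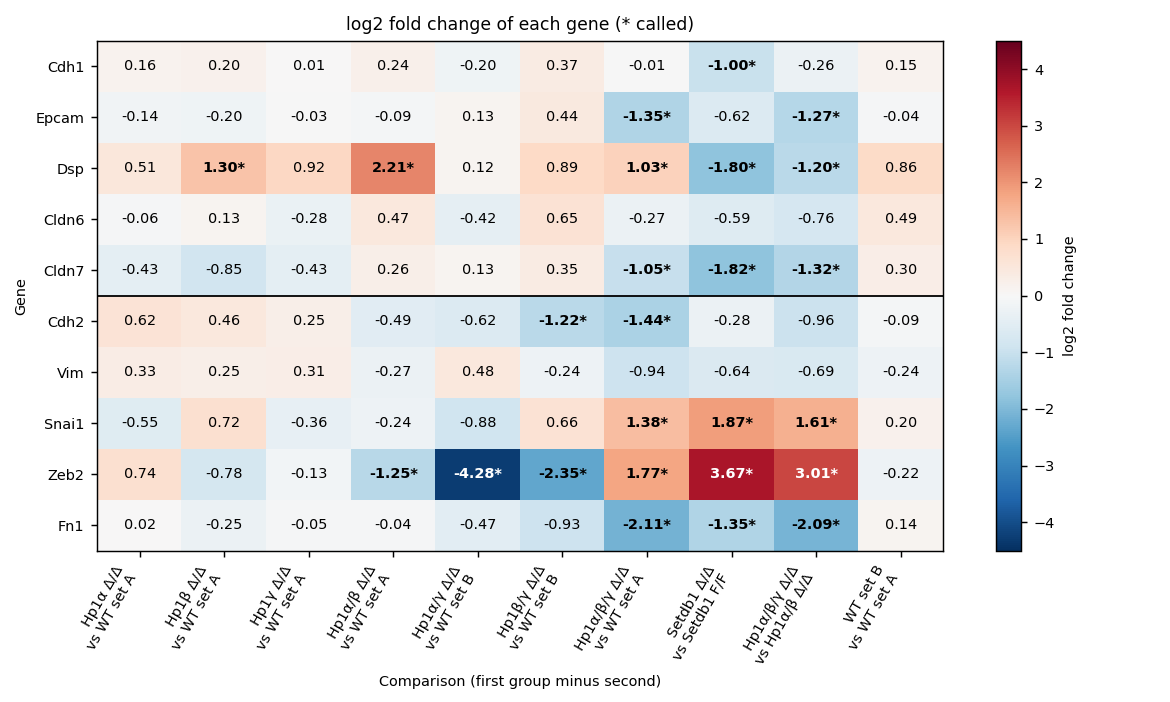
Log2 fold change of each member in each of the 10 comparisons, with members in rows, comparisons in columns and an asterisk on each called value. In Hp1α/β/γΔ/Δ cells Zeb2 stands at 1.77 and Fn1 at -2.11. The largest absolute value is that of Zeb2 in Hp1α/γΔ/Δ cells, at -4.28, which rests on 5 counts in these cells (-1.49 as a ratio of deposited TPM).

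The triple mutant was also compared with Hp1α/βΔ/Δ cells, which also lack HP1α and HP1β. Transcripts of both genes differed between them. Cbx5 had 282 CPM in the triple mutant and 203 CPM in Hp1α/βΔ/Δ cells, and Cbx1 had 46.2 and 96.6 CPM. The labels do not say whether the Hp1α/βΔ/Δ libraries carry the floxed Hp1γ allele, so the loss of HP1γ, the line, Cre and the time since deletion cannot be told apart in the values below. Epcam, Dsp, Cldn7 and Fn1 fell and Snai1 and Zeb2 rose, making 6 of 10 members changed beside 41.4% of all genes tested (25.4% rose and 16.0% fell). All 10 had an adjusted p under 0.05, beside 80.6%. Dsp had 80.0, 76.5 and 81.5 CPM in Hp1α/βΔ/Δ cells, above the 33.6 to 37.5 CPM of the triple mutant (log2 fold change -1.20 ± 0.054, edgeR adjusted p = 5.37e-12). As a ratio of TPM its value was -0.81, short of the fold threshold, and -1.18 less the median of all genes on that scale. The same gene therefore rose against wild-type set A and fell against Hp1α/βΔ/Δ cells. Zeb2 had 0.720, 0.835 and 0.893 CPM in Hp1α/βΔ/Δ cells and rose by a log2 fold change of 3.01 ± 0.21 (edgeR adjusted p = 1.44e-09). Cdh1 had 582, 572 and 580.1 CPM in Hp1α/βΔ/Δ cells, above every library of the triple mutant by a small margin (log2 fold change -0.26 ± 0.027, edgeR adjusted p = 1.95e-07, or 0.18 as a ratio of TPM, whose median over all genes was 0.36). The other 922 chromosome 8 genes tested had a median log2 fold change of 0.49 here, and its part in the value of Cdh1 was not tested. The other calls were -1.27 for Epcam, -1.32 for Cldn7 (-0.85 as a ratio of TPM, and -1.21 less the median), -2.09 for Fn1 and 1.61 for Snai1. Feeder markers moved with Fn1: they summed to 67.1 to 74.5 CPM in Hp1α/βΔ/Δ cells, above the triple mutant, and 5 of the 9 tested fell, with Col1a1 first (-3.45). The ESC markers summed to 3853 to 3961 CPM in Hp1α/βΔ/Δ cells, also above the triple mutant. The part of these shifts in the values of the members was not tested.

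The difference between cells without and with HP1γ was not the same in wild-type and in Hp1α/βΔ/Δ cells. The loss was constitutive in the first and within days of Cre in the second, so the time since deletion and the absence of HP1α and HP1β cannot be told apart here. An interaction term over the 12 libraries of wild-type set A, Hp1γΔ/Δ, Hp1α/βΔ/Δ and Hp1α/β/γΔ/Δ cells had an adjusted p under 0.05 for all 10 members, beside 69.9% of all genes tested, a share that leaves little to read from the count. Epcam differed by -0.03 between Hp1γΔ/Δ and wild-type cells and by -1.27 between the triple mutant and Hp1α/βΔ/Δ cells (difference -1.23 ± 0.043, edgeR adjusted p = 9.00e-17). Dsp had opposite signs, 0.92 in wild-type and -1.20 in Hp1α/βΔ/Δ cells (difference -2.11 ± 0.092, edgeR adjusted p = 4.27e-15). Vim also turned, from 0.31 to -0.69 (difference -0.99 ± 0.080, edgeR adjusted p = 2.17e-10). Zeb2 went from -0.13 to 3.01 and Snai1 from -0.36 to 1.61, differences of 3.15 ± 0.31 and 1.98 ± 0.26 (edgeR adjusted p = 6.50e-09 and 5.39e-07). Fn1 went from -0.05 to -2.09 (difference -2.03 ± 0.039, edgeR adjusted p = 2.71e-21).

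**Figure D3:**
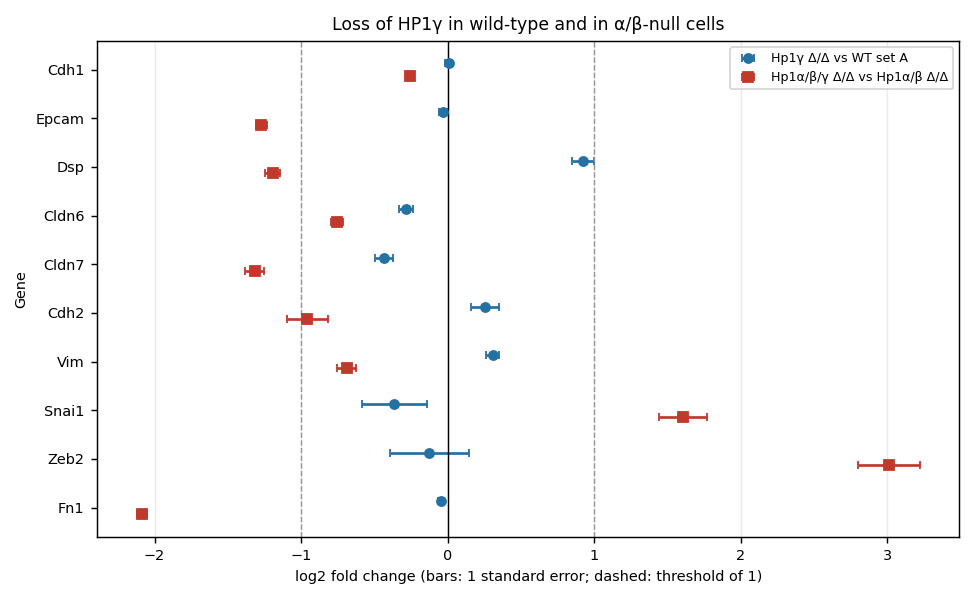
Log2 fold change of each member for Hp1γΔ/Δ cells against wild-type set A and for the triple mutant against Hp1α/βΔ/Δ cells, with standard errors as bars. Fn1 stands at -0.05 and -2.09, and Dsp lies on opposite sides of 0, at 0.92 and -1.20.

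Single HP1 losses left most members under the fold threshold. No member was called in Hp1αΔ/Δ cells, where 4.87% of all genes tested were, and none in Hp1γΔ/Δ cells, beside 5.59%. DESeq2 also called 0 members in both. At an unadjusted p under 0.05 edgeR gave 8 and 6 members, and at an adjusted p under 0.05 without the fold threshold 7 and 6, beside 45.0% and 46.7% of all genes. In Hp1βΔ/Δ cells 1 member, Dsp, was called, beside 9.10%, and 9 had an adjusted p under 0.05, beside 51.1%. It had 39.9, 44.1 and 42.8 CPM, all above set A (log2 fold change 1.30 ± 0.079, edgeR adjusted p = 3.07e-07), and 0.45 against set B. Cldn7 was lower in the same cells, at 26.6, 25 and 23.5 CPM, with a log2 fold change of -0.85 ± 0.072 against set A and -1.14 against set B. Cdh2 reached its highest mean in Hp1αΔ/Δ cells, where it had 19.3, 17.3 and 19.1 CPM (log2 fold change 0.62 ± 0.092, edgeR adjusted p = 1.40e-05, under the fold threshold).

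The wild-type sets themselves differed in some members. Between set B and set A no member passed both thresholds with edgeR or DESeq2, beside 5.68% of all genes tested, and 6 had an adjusted p under 0.05 alone (also 6 unadjusted), beside 24.8%. Dsp was the furthest apart, with a log2 difference of 0.86 ± 0.076, and Cldn6 had 92.3, 99.5 and 99.7 CPM in set B, a log2 difference of 0.49 ± 0.053 from set A. Epcam (-0.04) and Cdh2 (-0.09) were close between the sets. Feeder markers summed to 72.7 to 87.4 CPM in set B, above set A.

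On the CPM scale Zeb2 was lower in all 3 double mutants, opposite to the triple mutant. Hp1α/γΔ/Δ cells had 0.0487, 0.0548 and 0.139 CPM, from 5 counts in all, where set B had 2.46, 1.16 and 1.41 CPM from 107 counts. That is a 23.2-fold lower level, with an exact 95% interval of 9.62 to 72.8 that covers counting error only (fitted log2 fold change -4.28 ± 0.54, edgeR adjusted p = 8.18e-04). Hp1β/γΔ/Δ cells had 0.351, 0.348 and 0.271 CPM from 23 counts, 5.14-fold lower (3.25 to 8.45, edgeR adjusted p = 9.22e-05). In both of these mutants Zeb2 passed the filter on low counts only through the libraries of set B. With at least 10 counts required in every library it was tested in neither. Hp1α/βΔ/Δ cells had 53 counts against 125 in set A, 2.42-fold lower (1.74 to 3.41, edgeR adjusted p = 0.00431). In each double mutant the groups were fully apart in CPM, which did not hold for all of them in deposited TPM. Hp1α/γΔ/Δ cells had 0.01, 0.01 and 0.53 TPM and set B 0.65, 0.53 and 0.37 TPM, which overlap (log2 ratio of means -1.49). Hp1α/βΔ/Δ cells had 0.18, 0.87 and 0.33 TPM and set A 0.77, 1.09 and 0.76 TPM, which overlap too, and the ratio of means was short of the fold threshold (-0.92). Hp1β/γΔ/Δ cells, with 0.07, 0.1 and 0.08 TPM, stayed apart from set B (-2.63). Without the fold threshold 8 members passed in Hp1α/βΔ/Δ, 4 in Hp1α/γΔ/Δ and 10 in Hp1β/γΔ/Δ cells, beside 43.4%, 46.5% and 51.7% of all genes tested.

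In Hp1α/βΔ/Δ cells, Dsp rose from set A by a log2 fold change of 2.21 ± 0.063 (edgeR adjusted p = 1.80e-14), to the highest mean of any condition, 79.3 CPM. With Zeb2, 2 members were called there, beside 8.15% of all genes tested. Hp1β/γΔ/Δ cells had the highest means of Cdh1 (697 CPM), Epcam (420.4 CPM), Cldn6 (153 CPM) and Cldn7 (69.9 CPM), and all 5 epithelial members were above set B by log2 differences of 0.35 to 0.89 that were under the fold threshold. Cdh2 fell there, with 4.61, 4.18 and 5.69 CPM against 10.9, 11.9 and 11.2 CPM in set B (log2 fold change -1.22 ± 0.12, edgeR adjusted p = 8.80e-07). It was called with Zeb2, 2 of 10 members beside 11.9% of all genes tested. Fn1 had 869, 900.5 and 867 CPM, against 1499.5, 1802 and 1709 CPM in set B, a log2 difference of -0.93 ± 0.053 that reached -1.0 without replicate 1 of set B. Feeder markers summed to 85.7 to 91.5 CPM there and to 72.7 to 87.4 CPM in set B, though the median log2 fold change of the 10 tested was -0.44. Past both thresholds, 2 of the 10 rose and 1 fell (Loxl1, -1.31). The part of the feeder markers in the value of Fn1 was not tested.

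In Hp1α/γΔ/Δ cells only Zeb2 was called, 1 of 10 members beside 23.1% of all genes tested, and replicate 2 set the spread. Fn1 had 1598, 671 and 1417 CPM, Dsp 42.4, 17.5 and 42.2 CPM, Cldn7 50.5, 87.2 and 48.4 CPM, and Cdh1 527, 376 and 537 CPM. In each, replicate 2 lay outside the other two. Without it the log2 fold change of Cdh1 was -0.02 in place of -0.20, of Dsp 0.46 in place of 0.12, of Cldn7 -0.15 in place of 0.13, of Epcam -0.01 in place of 0.13 and of Fn1 -0.15 in place of -0.47. Snai1, with 1.61, 2.52 and 2.04 CPM, then passed the threshold (-1.01 in place of -0.88, edgeR adjusted p = 0.0085), and Zeb2 stayed called at -4.05. Feeder markers summed to 25.7 to 27.1 CPM here, and their part in these values was not tested.

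With Setdb1 loss, 3 of the 5 epithelial members fell, and Snai1 and Zeb2 rose. In Setdb1Δ/Δ against Setdb1F/F cells, 6 of 10 members were called, beside 29.9% of all genes tested: Cdh1, Dsp, Cldn7 and Fn1 fell, beside 11.4% of all genes, and Snai1 and Zeb2 rose, beside 18.5%. Without the fold threshold 9 members passed, beside 78.9%. The median log2 fold change was -1.0 over the epithelial and -0.28 over the mesenchymal members, beside 0.01 over all genes tested. Cdh1 had 264, 264 and 269 CPM in Setdb1F/F cells and 137, 129.8 and 134 CPM in Setdb1Δ/Δ cells, with no overlap (log2 fold change -1.0 ± 0.027, edgeR adjusted p = 7.19e-16). It sat on the threshold: the value was -0.99 with DESeq2 or its size factors, -0.94 with at least 10 counts in every library, -0.98 without replicate 2 of the knockout and -0.47 as a ratio of TPM, where the median of all genes was 0.46.

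Dsp had 64.3, 61.1 and 60.5 CPM and then 17.4, 18.4 and 18 CPM (log2 fold change -1.80 ± 0.051, edgeR adjusted p = 1.29e-15). Cldn7 had 6.47, 5.41 and 6.43 CPM and then 1.76, 1.91 and 1.53 CPM (log2 fold change -1.82 ± 0.17, edgeR adjusted p = 2.40e-08). Both were lower in every knockout library. Epcam (-0.62 ± 0.030) and Cldn6 (-0.59 ± 0.097) were lower as well, without overlap in CPM and under the fold threshold. As ratios of TPM they were -0.16 and -0.024, and Cldn6, with 17.7, 16.0 and 14.6 TPM and then 16.7, 14.5 and 16.3 TPM, overlapped on that scale.

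The largest rise of any member in the 10 comparisons was that of Zeb2 here. It had 0.498, 0.837 and 0.468 CPM in Setdb1F/F cells and 7.26, 7.51 and 8.39 CPM in Setdb1Δ/Δ cells, 12.7-fold higher (log2 fold change 3.67 ± 0.21, edgeR adjusted p = 2.86e-11). The Setdb1F/F values rest on 10, 15 and 8 counts, so Zeb2 passed the filter on low counts through the knockout libraries. With at least 10 counts required in every library it was not tested here. Snai1 had 1.54, 1.67 and 1.75 CPM and then 5.95, 6.12 and 6.20 CPM (log2 fold change 1.87 ± 0.16, edgeR adjusted p = 9.12e-09). No knockout library of either gene came near a control library. Fn1 had 2727, 2688 and 2703 CPM and then 1041, 1059.9 and 1112 CPM (log2 fold change -1.35 ± 0.020, edgeR adjusted p = 2.00e-19). As a ratio of TPM its value was -0.83, and -1.30 less the median of all genes on that scale. Vim was lower by a log2 difference of -0.64 ± 0.038, under the fold threshold. Cdh2 had 1.69, 2.23 and 1.52 CPM and then 1.56, 1.48 and 1.48 CPM, with overlapping ranges (log2 fold change -0.28 ± 0.24, edgeR adjusted p = 0.299, and 0.24 as a ratio of TPM). Feeder markers summed to 22.0 to 23.5 CPM in Setdb1F/F and 22.1 to 24.2 CPM in Setdb1Δ/Δ cells. Of the 7 tested, 2 fell and 1 rose, with a median log2 fold change of 0.03. The part of the feeder markers in the value of Fn1 here was not tested.

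The responses to HP1 and to SETDB1 loss were then compared directly, each against its own control, by an interaction term over 12 libraries. It had an adjusted p under 0.05 for 9 of 10 members, beside 64.9% of all genes tested. Dsp differed most: it rose in the triple mutant and fell in Setdb1Δ/Δ cells (difference 2.80 ± 0.091, edgeR adjusted p = 1.52e-17). Zeb2 rose in both, by a larger step in Setdb1Δ/Δ cells (difference -1.92 ± 0.29, edgeR adjusted p = 4.12e-06). Fn1 fell in both, further in the triple mutant (difference -0.79 ± 0.031, edgeR adjusted p = 4.68e-16). Cdh1 fell in Setdb1Δ/Δ cells with a difference of 0.97 ± 0.034 (edgeR adjusted p = 7.22e-17). Snai1 was the member that missed the threshold, with a difference of -0.51 ± 0.23 (edgeR adjusted p = 0.0535), which does not show equal responses, and it passed without replicate 1 of set A (-0.66). Cldn6, with a difference of 0.29 ± 0.10, missed the threshold without replicate 1 (0.21) or replicate 2 (0.25) of the Setdb1F/F cells. Setdb1F/F cells also started elsewhere: Fn1, Vim and Dsp were higher, and the other 7 members lower, in each Setdb1F/F library than in all libraries of set A, a difference in which line and batch cannot be told apart.

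**Figure D4:**
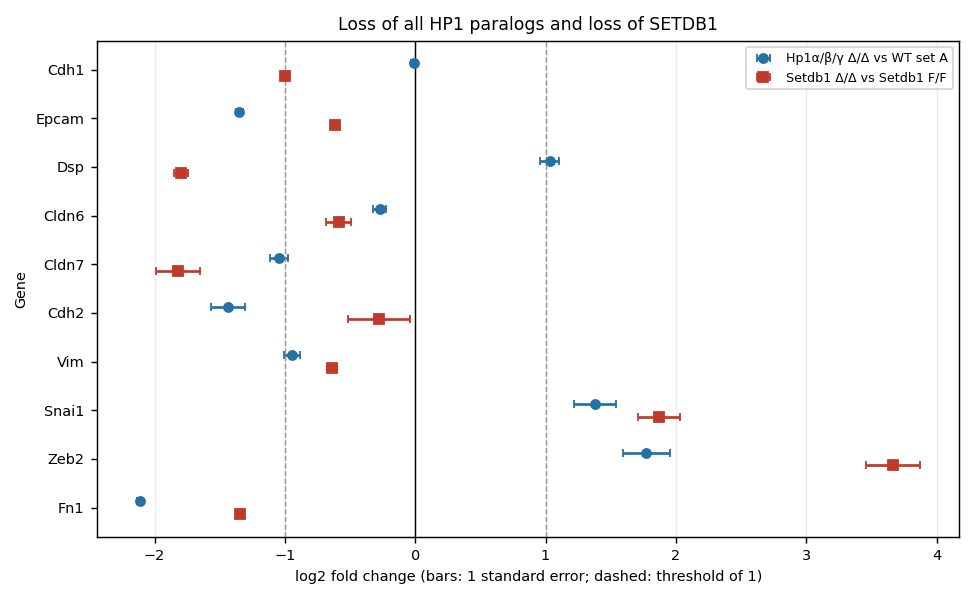
Log2 fold change of each member in Hp1α/β/γΔ/Δ cells against wild-type set A and in Setdb1Δ/Δ against Setdb1F/F cells, with standard errors as bars. Snai1 (1.38 and 1.87), Zeb2 (1.77 and 3.67) and Fn1 (-2.11 and -1.35) share a sign, and Dsp (1.03 and -1.80) does not.

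Across the 11 conditions the members differed in how far they ranged. Zeb2 spanned 95.4-fold between its highest and lowest condition means, Cldn7 40.3-fold, Cldn6 15-fold and Cdh2 12.3-fold, whereas Cdh1 spanned 5.22-fold, Epcam 3.90-fold and Vim 3.37-fold. Ordered by mean, Cdh1 ran from Hp1β/γΔ/Δ (697 CPM) through Hp1α/βΔ/Δ (578 CPM), Hp1βΔ/Δ (567 CPM), Hp1αΔ/Δ (541 CPM) and set B (538 CPM) to the triple mutant (493 CPM), Hp1γΔ/Δ (488 CPM), set A (487 CPM) and Hp1α/γΔ/Δ cells (479.9 CPM), and then to Setdb1F/F (266 CPM) and Setdb1Δ/Δ cells (134 CPM). Neighbours from the triple mutant down to Hp1α/γΔ/Δ cells overlapped in their ranges, whereas both Setdb1 conditions stood apart. For Snai1, 9 of the 10 neighbouring pairs overlapped, and the triple mutant alone was clear of the condition next to it. For Zeb2 the 2 highest conditions, Setdb1Δ/Δ (7.72 ± 0.594 CPM, SD, n = 3) and the triple mutant (6.80 ± 0.258 CPM), were both clear of the next, Hp1αΔ/Δ cells (3.24 ± 0.342 CPM). Vim was highest in Setdb1F/F cells (104 ± 0.976 CPM) and lowest in the triple mutant (30.9 ± 2.47 CPM), each clear of its neighbour.

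The balance of the cadherins can be read per length, from the ratio of Cdh1 to Cdh2 in TPM. It was 39.5 ± 4.72 (SD, n = 3) in set A, 43.9 ± 1.59 in set B and 114 ± 15.2 in the triple mutant. Hp1β/γΔ/Δ cells had 138 ± 24.7 and Setdb1F/F cells 145 ± 29.3, against 86.4 ± 6.22 in Setdb1Δ/Δ cells. Single mutants lay lowest, from 27.1 ± 1.67 in Hp1αΔ/Δ to 33.1 ± 2.83 in Hp1γΔ/Δ cells. The triple mutant thus had more Cdh1 per Cdh2 than wild-type cells in all 3 libraries.

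Other genes of the same structures were taken from lists. Their counts in the triple mutant stand beside 25.1% of all genes tested that rose and 17.1% that fell, so that 3 of 11 genes rising is near the share of all genes and 3 of 17 called is below it. The partners of cadherins at adherens junctions had a median log2 fold change of -0.79, and 3 of 10 fell and none rose by edgeR. These were Jup (plakoglobin), from 217 to 72.0 CPM (-1.62), Nectin1 (-1.34) and Ctnnb1 (β-catenin), from 740 to 343 CPM (-1.14). Of 17 tight junction genes tested, Cldn3 (-1.55) and Ocln (occludin, -1.22) fell and Crb3 rose (1.38). Of 11 desmosome and keratin genes, Dsg2 (1.29), Krt18 (1.15) and Krt8 (1.12) rose with Dsp and none fell. The control matters here too: Krt8 had 126 CPM in the triple mutant, 57.2 CPM in set A and 96.9 CPM in set B. Against Hp1α/βΔ/Δ cells 2 of 11 fell and 0 rose, with a median of -0.64, beside 16.0% of all genes that fell. Of 13 epithelial regulators, 4 fell, among them Ovol2 (-1.43) and the splicing factor Esrp1 (-1.31), and Rab25 rose (2.13). Of 7 transcription factors of the epithelial to mesenchymal transition, 3 rose and none fell. Zeb1, the paralog of Zeb2, went from 11.3 to 33.6 CPM (1.55). Of 12 mesenchymal matrix and adhesion genes 6 fell and 1 rose, with a median of -0.90. The proteases Mmp2 (-2.65) and Mmp14 (-1.80) were among those that fell.

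In Setdb1Δ/Δ cells, where 11.4% of all genes tested fell and 18.5% rose, desmosome and keratin genes had the direction of Dsp: 5 of 11 fell and none rose, with a median of -0.82. Krt8 went from 32.2 to 3.89 CPM (-3.05), Krt19 fell by 2.38 and Dsg2 by 1.52 on the log2 scale. Jup (-1.71) and Nectin1 (-1.45) fell, 2 of 10 adherens junction partners, and so did 3 of 16 tight junction genes, with Cldn4 (41.8 to 3.79 CPM, -3.47) and Tjp3 (-1.89) first, each count about 1 gene above what 11.4% would give. Of 12 epithelial regulators 5 fell and none rose, Grhl2 (-1.98), Esrp1 (-1.85) and Elf3 (-1.51) among them. Of 9 matrix genes 2 fell (Mmp2, -2.14, and Tgfbi, -1.66) and 2 rose, and of 5 transcription factors of the transition 1 rose. Endoderm markers fell with these epithelial genes: 10 of 14 fell, with a median of -1.57, among them Lama1 (-2.74), Cubn (-4.69) and Sox7 (-3.19), and their summed level went from 591 to 595 CPM in Setdb1F/F to 270.5 to 277 CPM in Setdb1Δ/Δ cells. In the triple mutant 5 of 12 endoderm markers rose, Gata4 (3.53) among them, and 3 fell. Of the early mesoderm markers, 2 of 5 rose and 1 fell in the triple mutant, Hand1 (1.09) and Eomes (-1.04) among them, and 1 of 3 rose and 1 fell, Eomes (-3.20), in Setdb1Δ/Δ cells. The part of these shifts in the values of the junction genes was not tested.

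**Figure D5:**
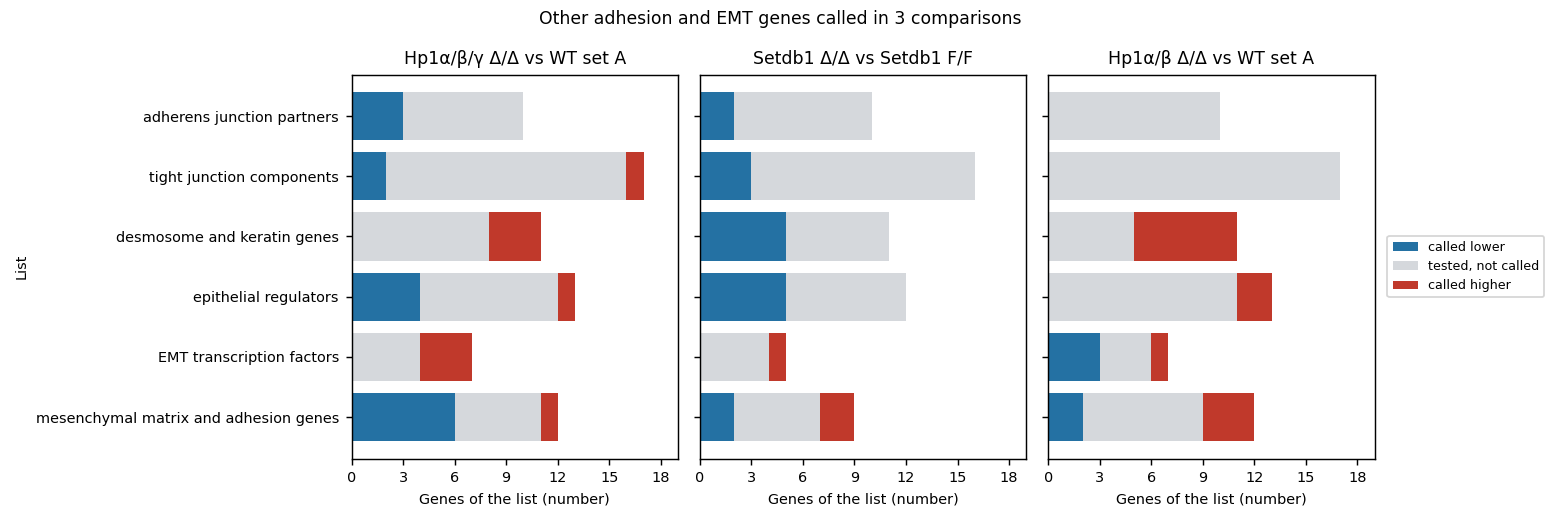
Number of genes of each list that were called lower (blue), tested and not called (grey) or called higher (red) in Hp1α/β/γΔ/Δ, Setdb1Δ/Δ and Hp1α/βΔ/Δ cells, each against its control, with lists in rows. Of 11 desmosome and keratin genes, 3 rose in the triple mutant, 5 fell in Setdb1Δ/Δ cells and 6 rose in Hp1α/βΔ/Δ cells.

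Genes of the desmosome and keratin list were called in the double mutants too. In Hp1α/βΔ/Δ cells 6 of 11 rose with Dsp and none fell, beside 8.15% of all genes called in either direction, and Krt8 went from 57.2 to 236 CPM (2.04). In Hp1β/γΔ/Δ cells 3 of 11 rose, beside 11.9%, with Krt8 from 96.9 to 431 CPM (2.15). In Hp1α/γΔ/Δ cells 7 of 11 fell and 1 rose, beside 23.1%, with Krt8 at 21.2 CPM (-2.24). These comparisons share wild-type sets, and the feeder list in Hp1α/γΔ/Δ cells had 9 of 10 tested markers lower past both thresholds.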

How the data were processed

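Total RNA of the ESCs was sequenced. The study's methods name a stranded total RNA kit and the labels a TruSeq RNA kit, so strand use in counting is unknown. The submitters' processing notes list TopHat2 2.1.1, RSEM, edgeR and GRCm38.p5 without roles. The deposited tables hold, for each gene and library, the authors' estimated counts (RSEM is among the listed tools), which were rounded to whole numbers (84.5% to 88.8% already were), and the authors' TPM, which were used for levels per length. The columns of the authors' own comparisons, log2 fold changes and p-values, were deposited too and were not used. Control columns were identical between the 8 tables. Gene models came from GENCODE M21 (55141 of 55487 IDs matched), promoters from RefSeq.

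Each comparison used its 6 libraries in edgeR 4.0.16 (R 4.3.3): filterByExpr with a minimum count of 10, TMM factors, glmQLFit and glmQLFTest, with p-values adjusted by Benjamini-Hochberg over all genes tested. Calls needed an adjusted p under 0.05 and, except for interactions, an absolute log2 fold change over 1, the thresholds of the study. Standard errors of log2 fold changes and of their differences were taken as the absolute value divided by the square root of its F statistic. CPM are counts scaled by TMM over all 33 libraries. On simulated data with 200 changed genes, the comparison of the triple mutant with set A recovered 200 of 200 (15758 genes) and the HP1γ interaction 198 (16238 genes). Of the unchanged genes, 0 and 11 were called. The planted changes lay well above the fold threshold, with the same spread for all genes. Recovery of changes near the threshold was therefore not tested. Median depth was 21522569 counts per library, and intervals cover counting error only.

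All members were named in each comparison. From each list, the named genes were the 3 called genes with the largest fold change in the triple mutant and in Setdb1Δ/Δ cells (1 in others), with groups that did not overlap and a mean of 5 CPM or more where higher; some are not reported here. The members and lists were chosen with earlier results of these data known. No pair of replicates agreed within sampling noise. Alternatives were DESeq2 1.42.0, its size factors, other filters, no fold threshold, a joint fit, the other wild-type set, a replicate block, and each library left out. The ratio of deposited TPM was added after seeing the data.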

Additional observations from a re-analysis of the deposited data

Results flagged for a closer look

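For all 10 members the log2 fold change between cells without and with HP1γ differed between the triple mutant against Hp1α/βΔ/Δ cells and Hp1γΔ/Δ cells against wild-type set A, by a test of the difference itself (edgeR's quasi-likelihood interaction term, adjusted p at most 6.45e-07, 3 libraries per condition). The same was true of 69.9% of all genes tested. The arms also differ in the time since deletion, constitutive in one and within days of Cre in the other. The first change minus the second was -0.25 for Cdh1, -1.23 for Epcam, -2.11 for Dsp, -0.46 for Cldn6 and -0.87 for Cldn7. It was -1.20 for Cdh2, -0.99 for Vim, -2.03 for Fn1, 1.98 for Snai1 and 3.15 for Zeb2. With wild-type set B in place of set A, Cldn6 no longer differed past the threshold (0.03, edgeR adjusted p = 0.726), and 9 members passed. Leaving out each of the 12 libraries in turn left 10 members past the threshold.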

How the results depend on the processing

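Of 1796 recomputed values of single members, 1684 kept their direction and their side of the threshold, 19 fell short of the threshold, 63 passed it anew and 30 changed sign. Ratios of TPM have no p-value, and those that went past the fold threshold anew were counted among the 1684. Without the fold threshold, 7 members were called in Hp1αΔ/Δ, 9 in Hp1βΔ/Δ, 6 in Hp1γΔ/Δ, 8 in Hp1α/βΔ/Δ, 4 in Hp1α/γΔ/Δ and 10 in Hp1β/γΔ/Δ cells, 10 in the triple mutant against Hp1α/βΔ/Δ cells and 6 between the wild-type sets. With at least 10 counts in every library, 0 of 9 members were called in Hp1α/γΔ/Δ and 1 of 9 in Hp1β/γΔ/Δ cells, because Zeb2 was then not tested. Nor was Zeb2 tested in Setdb1Δ/Δ cells, where 4 of 9 members were called. Cdh1 in the triple mutant then had 0.088 (edgeR adjusted p = 0.00203). It had 0.020 with DESeq2 and with its size factors. Against the other wild-type set, 4 members were called in Hp1β/γΔ/Δ cells. Signs then changed for Dsp (-0.34) and Fn1 (-0.11) in Hp1αΔ/Δ, Cldn6 (-0.35) in Hp1βΔ/Δ, Cdh1 (-0.12), Epcam (0.023) and Zeb2 (0.11) in Hp1γΔ/Δ, Cldn6 (-0.015) and Cldn7 (-0.040) in Hp1α/βΔ/Δ and Cldn6 (0.075) in Hp1α/γΔ/Δ cells, and Cldn6 had 0.028 in the HP1γ interaction.

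As ratios of deposited TPM, chosen after seeing the data, signs changed for Fn1 (-0.036) in Hp1αΔ/Δ, Cdh1 (-0.0058) and Epcam (0.046) in Hp1γΔ/Δ, Epcam (-0.25), Dsp (-0.20) and Cldn7 (-0.21) in Hp1α/γΔ/Δ, Cdh1 (0.41) and Cldn6 (0.17) in the triple mutant, Cdh2 (0.24) in Setdb1Δ/Δ cells, Cdh1 (0.18) in the triple mutant against Hp1α/βΔ/Δ cells and Cdh2 (0.037) between wild-type sets. Calls that fell short of the fold threshold were Zeb2 in Hp1α/βΔ/Δ (-0.92), Cldn7 in the triple mutant (-0.62), Cdh1 (-0.47) and Fn1 (-0.83) in Setdb1Δ/Δ cells, and Dsp (-0.81) and Cldn7 (-0.85) in the triple mutant against Hp1α/βΔ/Δ cells. In the other direction, Snai1 in Hp1α/γΔ/Δ (-1.27) and Fn1 in Hp1β/γΔ/Δ cells (-1.03) went past it, though neither was called on counts. The median of all genes moved on that scale by 0.34 in the triple mutant, 0.46 in Setdb1Δ/Δ and -0.33 in Hp1α/γΔ/Δ cells. On CPM, which carry TMM factors where deposited TPM were used as given, it was -0.034, -0.018 and 0.041. The cause was not tested. Less the median of its comparison, Fn1 in Setdb1Δ/Δ cells was -1.30, past the fold threshold. So were Dsp (-1.18) and Cldn7 (-1.21) in the triple mutant against Hp1α/βΔ/Δ cells. Zeb2 in Hp1α/βΔ/Δ (-0.91), Cldn7 in the triple mutant (-0.95) and Cdh1 in Setdb1Δ/Δ cells (-0.93) stayed short of it. Ranks per length equalled those of counts per kilobase for 65 of 110 values and differed by at most 2 places.

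Leaving out each library in turn gave counts of 0 to 0 in Hp1αΔ/Δ and Hp1γΔ/Δ cells and between wild-type sets, 1 to 1 in Hp1βΔ/Δ, 2 to 2 in Hp1α/βΔ/Δ, 1 to 2 in Hp1α/γΔ/Δ (2 without replicate 2), 2 to 3 in Hp1β/γΔ/Δ, 6 to 8 in the triple mutant, 5 to 6 in Setdb1Δ/Δ cells, 6 to 7 in the triple mutant against Hp1α/βΔ/Δ cells, 10 to 10 for the HP1γ and 8 to 10 for the Setdb1 interaction. Cdh1 in Hp1γΔ/Δ cells ran from -0.0077 to 0.022, Dsp in Hp1α/γΔ/Δ from -0.070 to 0.46, Epcam from -0.0069 to 0.22, Cldn7 from -0.15 to 0.27 and Snai1 between wild-type sets from -0.17 to 0.36.

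Same-numbered replicates correlated at -0.105 to 0.136 in their deviations, and in no comparison did every number exceed 0.1 or every sample correlate best with its own number, so the numbers do not pair the samples. With a replicate block the 12 counts stayed at 0, 1, 0, 2, 1, 2, 7, 6, 6, 0, 10 and 9.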

Other observations

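The genes whose condition means ran most like those of Cdh1, among 11435 compared over 11 conditions, were Nabp2 (Pearson's r of mean log2 CPM 0.994), Them6 (0.978) and Smtn (0.977). These values rest in part on the Setdb1 conditions: over the 9 others they were 0.899, 0.761 and 0.797. Nabp2 had 49.3 CPM in wild-type set A, 47.6 CPM in the triple mutant, 28.3 CPM in Setdb1F/F and 17.6 CPM in Setdb1Δ/Δ cells. For Vim they were Uba2 (0.958), which encodes a subunit of the SUMO-activating enzyme, Npl (0.949) and the deubiquitinase gene Usp1 (0.940), and over 9 conditions 0.955, 0.935 and 0.917. Usp1 had 158 CPM in set A and 67.6 CPM in the triple mutant. The conditions share control sets and libraries, and no test was made.

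Endoderm and ESC markers moved beside the members in the triple mutant. Of 8 ESC markers 6 fell and none rose, with Tdgf1 (984 to 162 CPM), Dppa5a (512 to 148 CPM) and Sox2 (356 to 120 CPM) first, while in Setdb1Δ/Δ cells 1 of 8 fell, Dppa5a (887 to 373 CPM). Gata4, a transcription factor of endoderm, went from 0.797 to 9.41 CPM in the triple mutant, and Lama1, a laminin chain of basement membrane, from 158 to 41.5 CPM.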
